A study of Mus musculus with 135 samples.

Results

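The genes described here are the mouse zinc finger genes that lie outside chromosome 13 and the sex chromosomes. They were chosen by name: protein-coding genes of the GENCODE M21 annotation called Zfp with digits and an optional letter, without Zfp42, a marker of pluripotent cells. The choice gave 346 genes of 21951 protein-coding genes, against 391 Zfp genes on all chromosomes and 36 on chromosome 13. Chromosome 7 held 92 of the 346, chromosome 17 held 45, chromosome 4 held 30, chromosome 2 held 28 and chromosome 8 held 23. Neighbours lay close together: 184 members fell into 30 runs of at least 3 members with gaps of at most 250 kb between their starts.

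Most Zfp proteins are C2H2 zinc finger DNA-binding factors, and many carry a KRAB domain, which recruits the corepressor TRIM28 (KAP1) and with it histone H3 lysine 9 methylation. KRAB zinc finger genes sit in tandem arrays that grow by duplication, and several silence retroelements or guard imprinted loci in embryonic cells. H3K4me3, in which lysine 4 of histone H3 carries 3 methyl groups, stands at active gene starts, most often at starts rich in CpG dinucleotides.

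H3K4me3 was measured by ChIP-seq of MNase-digested chromatin to map loci that set its level. Male germ cells, taken as a crude isolate from animals of 14 days post-partum, came from 61 BXD strains (69 libraries), the (B6xD2)F1 hybrid (4 libraries), C57BL/6J (B6, 3 libraries) and DBA/2J (D2, 3 libraries). Adult females of 8 weeks gave the hepatocytes and the cardiomyocytes, in 3 libraries per cell type for BXD75, BXD87, B6 and D2. Embryonic stem cells derived at embryonic day 3.5 came from 5 lines each of BXD75 and BXD87 and 3 lines each of B6 and D2. A BXD strain is an inbred line descended from a B6 by D2 cross, whose genome is a fixed mosaic of both. The animals carried no transgene or treatment according to the labels. Repeat libraries of stem cell lines B6-49 and D2-203 were summed, so that a line was the replicate.

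Reads in peaks per library ranged over 1868469 to 18551562 in the germ cell panel, 12454594 to 31404259 in F1, 6932375 to 16421047 in B6 and 8727280 to 30334823 in D2 germ cells. Cardiomyocyte libraries had 6839220 to 8338075 reads in B6 and 2618483 to 4104501 in D2, the shallowest founder group. Stem cell libraries of all strains had at least 13782309 reads, and hepatocyte libraries at least 8952415. Whether each library is a separate animal is not stated in the labels, so p-values measure only the spread between these libraries. Cell type markers were checked by promoter peaks: all 8 germ cell markers, 7 of 8 hepatocyte markers, 5 of 8 stem cell markers and 5 of 8 cardiomyocyte markers had one in their own cell type. The stem cell markers without a promoter peak in the table used here were Pou5f1, Nanog and Tdgf1, and the cardiomyocyte ones were Myh6, Tnnt2 and Nppa. Markers of other cell types had promoter peaks as well. In germ cells these were 7 of 8 stem cell markers, 6 of 6 markers of differentiated lineages and 4 of 8 Sertoli and Leydig cell markers. Cardiomyocytes had peaks at 5 of 7 non-myocyte markers, while hepatocytes had them at 0 of 8 cardiomyocyte markers. A promoter peak at a marker therefore does not by itself set these cell types apart. A peak is a bulk measurement, in which fewer marked cells and less mark per cell cannot be told apart.

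The promoters below carry the results that follow: Zfp658 (chr7:43562120-43562419, plus strand), marked in every cell type and called between the founders in each. Zfp984 (chr4:147809739-147810038, minus strand) had the largest difference in germ cells in the D2 direction. Zfp868 (chr8:69625126-69625425, minus strand) differed in stem cells. Zfp937 (chr2:150217849-150218148, plus strand) was read in B6 and not in D2, and Zfp965 (chr2:175469775-175470074, plus strand) had no peak in any cell type. Each is the RefSeq window of 300 bases, from 250 before to 50 after the start on GRCm38.p6, printed 5′ to 3′ with CpG dinucleotides in capitals.
Zfp658: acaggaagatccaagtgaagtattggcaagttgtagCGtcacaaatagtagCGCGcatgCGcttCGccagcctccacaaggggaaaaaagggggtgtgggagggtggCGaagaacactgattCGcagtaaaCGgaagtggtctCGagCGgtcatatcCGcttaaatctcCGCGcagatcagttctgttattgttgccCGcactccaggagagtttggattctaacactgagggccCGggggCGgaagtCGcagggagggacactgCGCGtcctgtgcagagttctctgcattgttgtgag
Zfp984: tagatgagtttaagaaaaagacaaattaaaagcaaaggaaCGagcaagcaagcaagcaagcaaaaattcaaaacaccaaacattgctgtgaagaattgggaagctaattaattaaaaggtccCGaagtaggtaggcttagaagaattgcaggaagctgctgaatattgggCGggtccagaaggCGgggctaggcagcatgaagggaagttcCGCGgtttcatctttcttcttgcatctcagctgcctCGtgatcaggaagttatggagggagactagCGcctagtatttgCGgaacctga
Zfp868: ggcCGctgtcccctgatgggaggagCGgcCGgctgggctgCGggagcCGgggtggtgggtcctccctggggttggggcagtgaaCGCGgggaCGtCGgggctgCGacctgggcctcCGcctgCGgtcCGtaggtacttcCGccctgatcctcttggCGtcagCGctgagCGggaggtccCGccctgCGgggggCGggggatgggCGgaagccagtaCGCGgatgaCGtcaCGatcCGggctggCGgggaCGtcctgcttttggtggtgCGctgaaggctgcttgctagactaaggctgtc
Zfp937: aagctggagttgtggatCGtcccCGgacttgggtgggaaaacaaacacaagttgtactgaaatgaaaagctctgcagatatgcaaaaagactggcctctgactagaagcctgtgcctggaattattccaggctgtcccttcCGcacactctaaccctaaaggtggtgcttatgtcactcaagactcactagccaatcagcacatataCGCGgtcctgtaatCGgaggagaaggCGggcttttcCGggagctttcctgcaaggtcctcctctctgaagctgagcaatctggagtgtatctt
Zfp965: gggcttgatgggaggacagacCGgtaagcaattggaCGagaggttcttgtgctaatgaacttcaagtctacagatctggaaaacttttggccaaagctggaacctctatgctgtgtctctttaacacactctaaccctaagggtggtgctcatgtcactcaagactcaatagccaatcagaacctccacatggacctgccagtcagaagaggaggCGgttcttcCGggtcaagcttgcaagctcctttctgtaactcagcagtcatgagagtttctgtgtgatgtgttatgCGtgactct
The windows held 19 CpG at Zfp658, 9 at Zfp984, 29 at Zfp868, 8 at Zfp937 and 5 at Zfp965. Relative to the number expected from their C and G content, that is an observed over expected ratio of 0.88, 0.64, 0.80, 0.43 and 0.29.

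A promoter peak, here a peak within 1 kb of an annotated start, was found for most of these genes. Germ cells had one at 279 of 346 members (80.6%), stem cells at 273 (78.9%), hepatocytes at 262 (75.7%) and cardiomyocytes at 255 (73.7%). Of all protein-coding genes outside chromosomes 13, X and Y the shares were 70.1%, 68.2%, 57.3% and 60.1% in the same order of cell types. All 4 cell types had a peak at 216 members (62.4%, against 46.1% of all genes), at least 1 cell type at 302, and none at 44. The shares are counts over genes that share starts and loci, so no test was made of them.

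Of the 44 members without a peak, 23 lay in arrays on chromosomes 2 and 4, 9 in other runs and 12 in no run. The arrays towards the distal ends of chromosomes 2 and 4, from 175372436 to 175931100 and 177925613 to 178078476 on chromosome 2 and in 3 runs from 145510759 to 147848366 on chromosome 4, held 25 members, so that 92.0% of them had no peak. Zfp933 and Zfp984, neighbours at the distal edge of the chromosome 4 array, were the exceptions. Elsewhere the share without a peak was 5.66% of 159 members in other runs and 7.41% of 162 members outside runs. Among those other runs, a run of chromosome 10 and another of chromosome 7 each lacked a peak at 2 of 4 members. This grouping of runs was not fixed before the peaks were seen, so its shares are descriptions. Genes of one array can be near-identical copies. The sources used here do not state how the authors treated reads that map to several places, so the absence of a peak there is uncertain.

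Small groups of members had a peak in 1 cell type. Zfp541, a meiotic factor, had a peak in germ cells and in no other cell type, together with Zfp474, Zfp758, Zfp871, Zfp936, Zfp944 and Zfp960. Stem cells alone marked Zfp442, Zfp869 and Zfp955a, hepatocytes alone Zfp141 and Zfp951, and cardiomyocytes alone Zfp976, Zfp994 and Zfp995. The 3 peaks seen only in stem cells were low, with a highest B6 mean of 4 CPM (reads in the peak, scaled to the size of the library), while the 7 seen only in germ cells had a median of 23.6 CPM and a highest value of 68.8 CPM. A further 19 members lacked a peak in cardiomyocytes alone, 12 in hepatocytes alone, 10 in stem cells alone and 7 in germ cells alone, Zfp384 and Zfp608 among those 7. Promoter peaks were also missing at markers of the cell types themselves: Pou5f1, Nanog and Tdgf1 in stem cells, Myh6, Tnnt2 and Nppa in cardiomyocytes and Serpina1a in hepatocytes. A missing peak therefore need not mean an unmarked promoter, here or where members are divided by number of cell types with a peak.

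CpG content followed the same division. RefSeq held a promoter for 287 of 346 members (82.9%). The median CpG observed over expected ratio was 0.70 for members with a peak in all 4 cell types (n = 178), 0.64 for those with a peak in 1 to 3 (n = 73) and 0.29 for those with none (n = 36, quartiles 0.23 and 0.37). All members together had a median of 0.64, against 0.39 over 27026 genes with a RefSeq promoter, so that the median of members without a peak lay below that of all genes. Members in runs had a median of 0.57 and members outside runs 0.72. Copies within an array can have near-identical windows, so the genes behind these medians are not all separate observations.

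**Figure D1:**
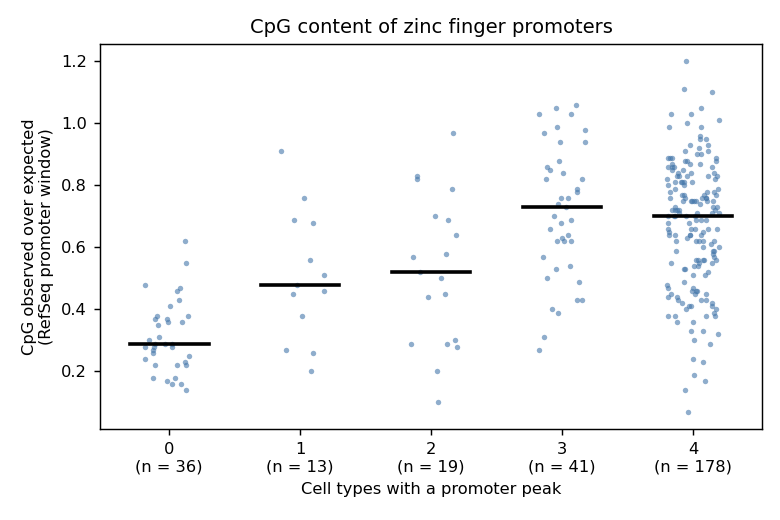
CpG observed over expected in the RefSeq promoter window (y axis) of each zinc finger gene (points) by the number of cell types with an H3K4me3 promoter peak (x axis), with the median as a bar. Genes without a peak centre on 0.29 and genes marked in all 4 cell types on 0.70.

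Short motifs were searched on both strands of the same windows. The ETS motif ccggaagt stood in 9.76% of members and 4.31% of all genes, the NRF1 motif (the letters gcgca followed directly by its reverse complement) in 3.83% and 1.07%, and the YY1 motif aagatggcg in 3.48% and 1.64%. Among the 36 windows of members without a peak, 2.78% held the ETS letters and none held those of NRF1 or YY1. The pentamer ccaat had the opposite order, with 80.6% of members without a peak, 43.8% of those with a peak in 4 cell types and 41.1% of all genes. At the all-gene shares 36 windows would hold few ETS, NRF1 or YY1 letters, so no depletion is read from those counts. The letters of ETS, NRF1 and YY1 each include CG and ccaat does not, and the sets differed in CpG ratio as given above. The part of CpG content in these motif shares was not tested. Windows of members without a peak can be near copies: Zfp965, Zfp966 and Zfp967 had the same GC content (48.3%) and CpG ratio (0.29). Such windows are not separate observations in these shares. Of the printed windows Zfp658 held the NRF1 letters, and each but Zfp868 held ccaat on one strand or the other. A stretch of 17 bases, atgtcactcaagactca, was noticed in the Zfp937 and Zfp965 windows after they were printed. It occurred in 9 of 287 members, all on chromosome 2 (Zfp442, Zfp937, Zfp965, Zfp966, Zfp967, Zfp968, Zfp970, Zfp971 and Zfp973), in 7 of 36 members without a peak and in 0 of 178 marked in 4 cell types. Over all RefSeq promoters it occurred in 29 of 27026 (0.107%).

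Levels are given per kb of peak where genes are compared, since peaks differed in width. In B6 the median over members was 17.8 CPM per kb in germ cells (quartiles 13.9 and 23.1), against 13.7 over all protein-coding promoter peaks (7.49 and 20.2). Stem cells had 8.55 CPM per kb over members against 7.43, hepatocytes 11.5 against 10.8 and cardiomyocytes 12.5 against 11.1. The lower quartile of the members was above that of all promoters in every cell type. The 4 tables were normalised separately, so levels are not compared between cell types. The Zfp genes of chromosome 13 had medians of 17.4, 9.29, 11.2 and 12.3 CPM per kb in germ cells, stem cells, hepatocytes and cardiomyocytes.

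**Figure D2:**
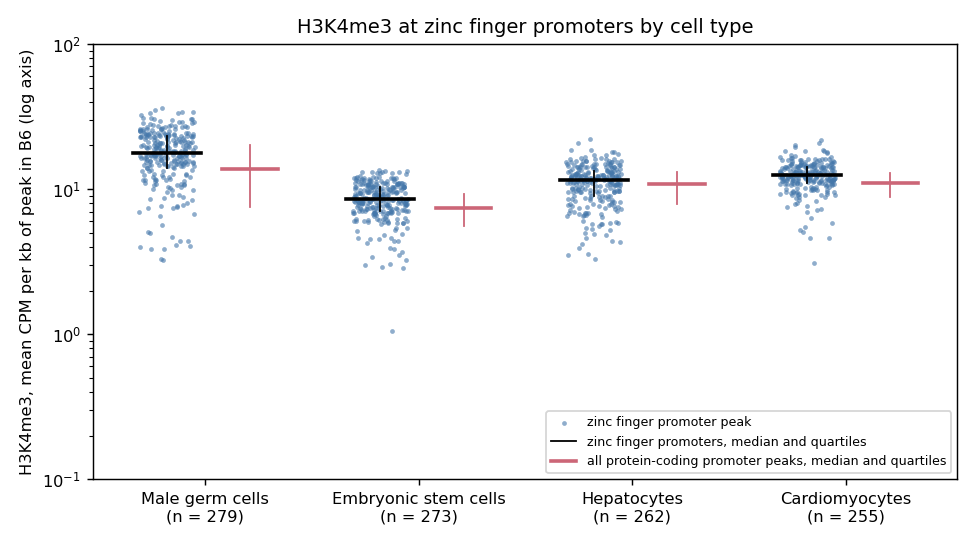
Mean H3K4me3 in B6 as CPM per kb of peak (log axis) for each zinc finger promoter peak (points), with median and quartiles (black), beside the median and quartiles of all protein-coding promoter peaks (red), in 4 cell types. The member median was 17.8 against 13.7 in germ cells and lay nearer to that of all promoters elsewhere.

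Genes known for silencing of imprinted loci and retroelements formed a short list of 6. Zfp57, which keeps the methylation of imprinted regions, had a peak of 45.9 kb in stem cells with 594 CPM, or 12.9 CPM per kb, the highest read level of any member there before division by length. Its germ cell peak measured 2.32 kb with 25.4 CPM, or 10.9 CPM per kb. In hepatocytes its peak measured 0.833 kb with 3.5 CPM, and in cardiomyocytes 1.62 kb with 12.2 CPM. Zfp445, a second guard of imprints, was marked in all cell types, at 16.4, 10.3, 14.5 and 9.06 CPM per kb in germ cells, stem cells, hepatocytes and cardiomyocytes. Zfp809, which silences murine leukaemia proviruses, and Zfp819 had no cardiomyocyte peak. Zfp568, a repressor of a placental Igf2 transcript, had none in hepatocytes or cardiomyocytes, and Zfp932 had none in any cell type.

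Members with general roles were marked almost everywhere. Of 15 genes acting in RNA, ribosomes, mitosis and chromatin, germ cells had a peak at 14, stem cells and cardiomyocytes at 15 and hepatocytes at 13. The widest were at Zfp36, which encodes the mRNA decay factor tristetraprolin, with 28.4 kb and 412 CPM in cardiomyocytes. Zfp91, a ubiquitin ligase, led this list per kb in stem cells (13.6 CPM) and cardiomyocytes (17.8 CPM). Zfp143, a factor of promoters and chromatin loops, led it in hepatocytes (18.5 CPM per kb), and Zfp638 in germ cells (33.5 CPM per kb). Of 4 genes of pluripotency and germ cells, Zfp281 and Zfp462 had peaks in all 4 cell types. Zfp296 had a peak in germ cells, hepatocytes and cardiomyocytes and none in stem cells, and Zfp541 had one in germ cells alone. Of 11 genes of development and differentiation Zfp683 was marked in none, and Zfp608 led the list in cardiomyocytes at 18.2 CPM per kb.

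The founder comparison asked where H3K4me3 differs between B6 and D2. In germ cells 11 of 279 members passed (edgeR's quasi-likelihood test, Benjamini-Hochberg adjusted p under 0.05 over all peaks of the table), or 3.94% against 7.51% of all promoter peaks. In stem cells 35 of 273 passed (12.8% against 17.3%), in hepatocytes 13 of 262 (4.96% against 9.22%) and in cardiomyocytes 18 of 255 (7.06% against 8.51%). The members' share was below that of all promoter peaks in each cell type, near it in cardiomyocytes. The sets are unlike: members count 1 main peak per gene, while all promoter peaks include further peaks of a gene and peaks of noncoding genes. With 1 main peak per protein-coding gene on both sides, 21.2% of members and 21.2% of genes were called in at least 1 cell type. Shares of all promoter peaks given below have the same limit. Peaks found on 1 of the 2 genomes the authors used were rare among members outside cardiomyocytes, with 3 of 279 in germ cells, 4 of 273 in stem cells and 3 of 262 in hepatocytes, of which 3, 4 and 1 were called (34.4%, 49.6% and 31.9% of all such promoter peaks). Among peaks found on both genomes the members' shares were 2.9% in germ cells, 11.5% in stem cells and 4.63% in hepatocytes, against 4.99%, 14% and 7.76% of promoter peaks. In cardiomyocytes 77 of 255 members had a peak found on 1 genome, and 4 of them were called (5.19% against 6.72%), beside 14 of 178 found on both (7.87% against 9.42%). The median log2 difference of the members (B6 minus D2) was -0.05, 0.04, 0.01 and 0.01 in germ cells, stem cells, hepatocytes and cardiomyocytes, against -0.07, 0.01, 0.02 and -0.04 over all promoters. On chromosome 13 the called Zfp genes were 4 of 26, 5 of 24, 3 of 26 and 3 of 25 in the same order, all higher in B6.

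Direction was uneven in 2 cell types. Of the 35 called in stem cells 28 were higher in B6 and 7 lower (8.43% and 8.86% of all promoter peaks). Some marker lists of other cell types separated the founder stem cell lines as well. The summed level of 3 liver non-parenchymal markers was 116 to 119 CPM in B6 and 147 to 151 CPM in D2, and that of 4 cardiac non-myocyte markers was 151 to 155 CPM in B6 and 174 to 179 CPM in D2. Both sums include Pecam1, so they are not separate measurements. The 1 hepatocyte marker with a peak had 16.1 to 18.4 CPM in B6 and 20.5 to 24.1 CPM in D2, and 6 germ cell markers summed to 34.6 to 38.8 CPM in B6 and 18 to 31.8 CPM in D2. The sums of the 5 stem cell markers overlapped. So did those of Sertoli and Leydig cell markers (67.6 to 80.8 CPM in B6, 63.4 to 89.3 CPM in D2) and of cardiomyocyte markers (44.2 to 47.9 CPM and 40.8 to 56.6 CPM). Markers of differentiated lineages overlapped too (110 to 133 CPM and 119 to 153 CPM). The part of these levels in the stem cell calls was not tested. In cardiomyocytes 16 were higher and 2 lower, against a background of 5.43% higher and 3.07% lower. The background counts peaks, while the 18 members called in cardiomyocytes are 16 peaks and the 35 in stem cells are 34. Zfp27 and Zfp383 share 1 peak, as do Zfp942 and Zfp943 in cardiomyocytes. Both shared peaks were higher in B6 and lie in runs, so the direction and run counts hold them more than once. Germ cells had 4 higher and 7 lower (background 3.43% and 4.08%), and hepatocytes 5 and 8 (background 4.61% and 4.61%). Members in runs were called more often than the others in stem cells (15% of 133 against 10.7% of 140), germ cells (5.84% against 2.11%) and cardiomyocytes (10.4% against 3.85%), and not in hepatocytes (4.69% against 5.22%). No test was made of these shares. Counts of called members depended on single libraries. In germ cells they were 21 and 18 without B6 library B62 or B63 and 7 without D2 library 1 or 3. In stem cells they were 54 without D2 line 216. In hepatocytes they were 7, 7 and 8 without B6 library 1, 2 or 3, and 6 and 8 without D2 library 2 or 3. In cardiomyocytes they were 8, 32 and 11 without B6 library 1, 2 or 3, and 8 without D2 library 2.

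**Figure D3:**
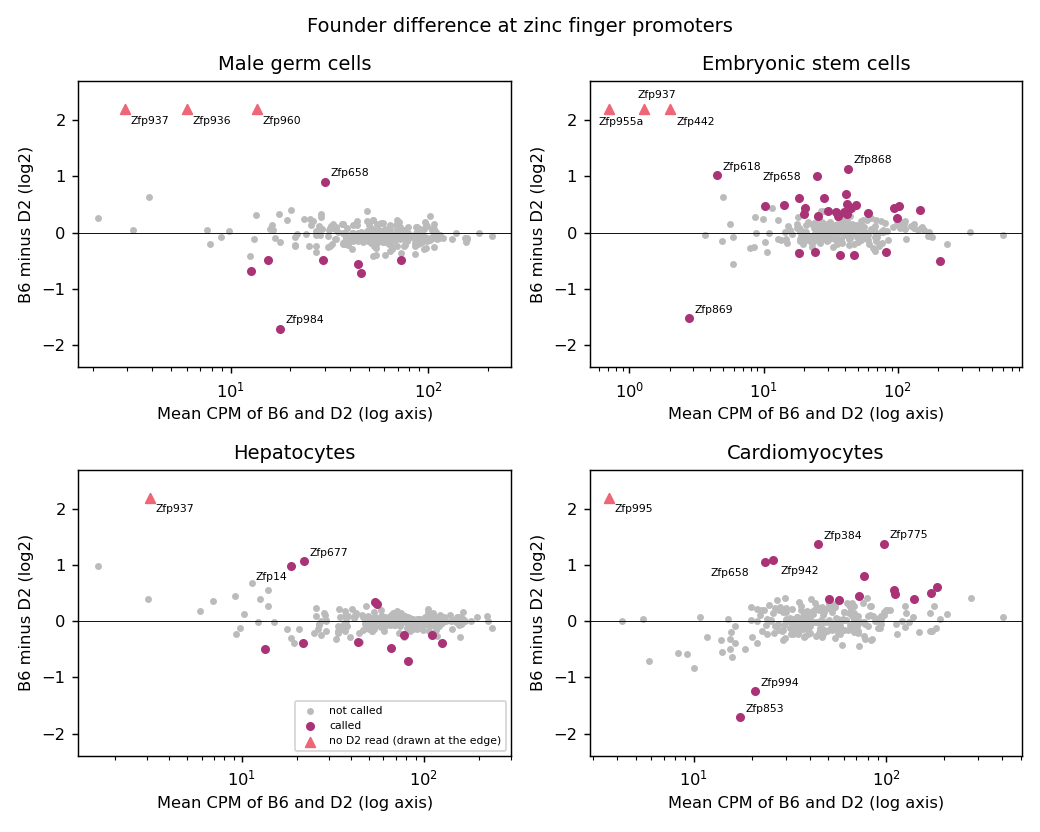
Log2 difference of B6 minus D2 (y axis) against the mean CPM of both (log axis) for zinc finger promoter peaks in 4 cell types. Called peaks are coloured, with 11, 35, 13 and 18 members called, and triangles at the upper edge mark peaks with no D2 read.

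Over the 4 cell types 64 of 302 members were called between the founders in at least 1, and 10 in at least 2. These are 21.2% and 3.31% of the members, against 21.2% and 2.91% of 15562 protein-coding genes outside chromosomes 13, X and Y, so both shares were near the background. Zfp658 was called in 4 cell types and Zfp937 in 3. Zfp105, Zfp217, Zfp27, Zfp383, Zfp608, Zfp74, Zfp788 and Zfp9 were called in 2 each. Directions were the same in 8 of the 10. Zfp105 and Zfp9 were higher in B6 stem cells and lower in B6 hepatocytes. The stem cell call of Zfp9 was lost in 4 of 6 fits without 1 line, with adjusted p up to 0.15, and that of Zfp105 without B6 line 49 (0.0606) or D2 line 173 (0.084). Zfp27 and Zfp383 share 1 peak, so they are a single measurement.

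Zfp658 (ENSMUSG00000056592) lies in a chromosome 7 run with Zfp936, Zfp715, Zfp719 and Zfp819, and its peak also covers the start of Gm44818, so that the mark cannot be assigned to 1 of them. In stem cells the peak (chr7:43561397-43564648, mm10) had 33.9, 32.6 and 32.9 CPM in the B6 lines, against 14.1, 16.1 and 19.4 CPM in the D2 lines. Every B6 line was above every D2 line, with a log2 difference of 1.01 (SE 0.11, adjusted p = 3.4e-07). In germ cells the values were 39.2, 39.4 and 41.4 CPM in B6 and 18.1, 21.2 and 21.5 CPM in D2 (log2 0.91, SE 0.15, adjusted p = 0.00014), again without overlap. Cardiomyocytes had 30.8, 31.9 and 31.9 CPM in B6, against 14.3, 16.5 and 14.4 CPM in D2 (log2 1.06, SE 0.19, adjusted p = 0.00509).

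Hepatocytes showed the smallest founder difference at Zfp658. There B6 had 60.2, 57.5 and 62.7 CPM and D2 had 47.0, 46.0 and 49.5 CPM, which do not overlap (log2 0.34, adjusted p = 0.0227). That call was lost without B6 library 1 (adjusted p = 0.0616), B6 library 3 (0.0906), D2 library 1 (0.0733) or D2 library 2 (0.0991). The hepatocyte libraries differ in other measures too. The summed promoter level of 3 liver non-parenchymal markers was 15.4 to 22.7 CPM in B6 and 36.7 to 86.8 CPM in D2. That of 2 cardiac non-myocyte markers was 30.8 to 35.7 CPM in B6 and 18.9 to 25.9 CPM in D2. Both sums include Ptprc, so they are not separate measurements. The sum of 4 stem cell markers was 91.1 to 92.6 CPM in B6 and 84.5 to 90.5 CPM in D2. The part of these levels in hepatocyte differences was not tested. With the main promoter peaks joined by gene across the 4 cell types, a setting chosen after seeing the data, the founder difference at Zfp658 depended on cell type (adjusted p = 0.00172). In that setting 36 of 216 members were called, or 16.7% against 15.8% of all promoters joined so.

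The BXD75 and BXD87 strains differed at Zfp658 as well. In stem cells BXD75 had 15.9, 14.9, 17.1, 17.0 and 17.3 CPM, against 31.7, 35.2, 34.1, 30.9 and 33.1 CPM in BXD87 (log2 -1.01, SE 0.09, adjusted p = 1.4e-08). The BXD75 lines lay within the range of D2, and those of BXD87 spanned the range of B6. In hepatocytes BXD75 had 30.5, 31.7 and 28 CPM and BXD87 had 44.8, 39.8 and 36.8 CPM (log2 -0.43, adjusted p = 0.013), all below both founders. Without BXD75 library 3 or BXD87 library 1 that adjusted p was 0.0538 or 0.0525. Cardiomyocytes had 33.3, 24.9 and 24.7 CPM in BXD75 and 26.2, 34 and 22.0 CPM in BXD87, which overlap (log2 0.01, adjusted p = 0.973).

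**Figure D4:**
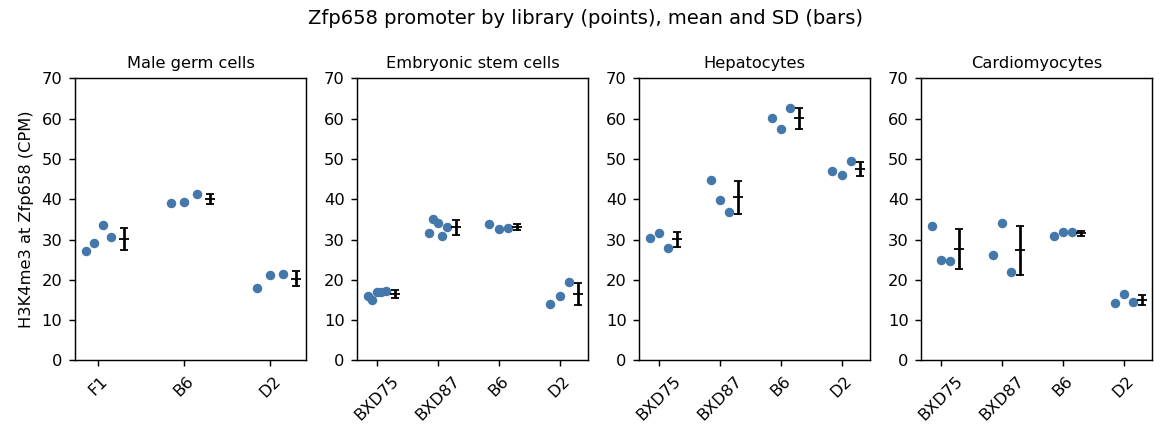
H3K4me3 at the Zfp658 promoter in CPM (y axis) for each library or stem cell line (points), with mean and SD (bars), by strain and cell type. BXD75 stem cells sit at 14.9 to 17.3 CPM, BXD87 at 30.9 to 35.2 CPM, and D2 lies below B6 in all 4 cell types.

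The germ cell panel placed strains across the founder range at Zfp658. Strain means over 61 BXD strains ran over 19.4 to 42.6 CPM with a median of 29.5 CPM, and 24 strains lay below the founder midpoint of 28.5 CPM and 37 above it. With antibody lot 2557645 the counts were 11 below and 17 above, and with lot 2746331 they were 13 and 19. F1 libraries had 27.1, 29.1, 33.7 and 30.7 CPM, between the founders and overlapping neither. They were higher than D2 (log2 0.56, adjusted p = 0.0144) and not called against B6 (log2 -0.35, adjusted p = 0.167). The first of these calls was lost without D2 library 1 (adjusted p = 0.133) or F1 library 3 (0.0675).

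Zfp984, at the distal edge of the chromosome 4 array, had the reverse direction. Its germ cell peak (chr4:147809096-147810593, mm10, also at the start of Gm20707) had 6.18, 9.64 and 9.79 CPM in B6, against 26.1, 30 and 24.8 CPM in D2. All B6 libraries lay below all D2 libraries (log2 -1.71, SE 0.19, adjusted p = 1.7e-06). F1 libraries had 9.82, 13.2, 11.7 and 12 CPM, below D2 (log2 -1.23, adjusted p = 3.9e-05) and not called against B6 (log2 0.48, adjusted p = 0.161), although each F1 value exceeded each B6 value. Over the panel strain means ran over 8.39 to 25.8 CPM, with 31 strains below and 30 above the midpoint of 15.2 CPM, and near equal counts in each antibody lot (14 and 14, 17 and 15). In cardiomyocytes, the only other cell type with a peak there, B6 averaged 6.65 CPM and D2 9.97 CPM (log2 -0.56, adjusted p = 0.19).

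A few peaks had no D2 read at all. In germ cells Zfp960 had 21.2, 26.6 and 34 CPM in B6 and 0 reads in each D2 library, at least 550-fold higher against a floor of 3 reads over the D2 group. Zfp936 had 11.9, 11.2 and 13.1 CPM in B6 (at least 243-fold) and Zfp937 had 4.79, 4.58 and 8.23 CPM (at least 118-fold). Zfp937 was also without D2 reads in stem cells, with a B6 mean of 2.59 CPM (at least 77.3-fold), and in hepatocytes, with 6.29 CPM (at least 72.4-fold). Zfp442 (4 CPM, at least 119-fold) and Zfp955a (1.42 CPM, at least 42.5-fold) behaved so in stem cells and Zfp995 in cardiomyocytes (7.28 CPM, at least 26.9-fold). The names of all these peaks mark them as found on mm10 and not on the second genome. The sources used here do not state on which genome D2 reads were counted. From the D2 libraries alone, a D2 promoter without the mark and a D2 promoter whose reads were not counted cannot be told apart. The folds carry the same limit.

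Libraries with part of the D2 genome did have reads at those peaks. F1 germ cells had 26.5, 22.3, 33.7 and 35.7 CPM at Zfp960, against 21.2 to 34 CPM in B6, with overlap (log2 0.17, SE 0.19, adjusted p = 0.675). At Zfp936 F1 had 9.1, 11.8, 9.8 and 9.38 CPM (F1 minus B6 log2 -0.21, adjusted p = 0.568), and at Zfp937 4.71, 2.67, 4.66 and 5.46 CPM (log2 -0.32, adjusted p = 0.593). All 61 BXD strains had reads at the 3 peaks, with strain means of 13 to 32.3 CPM at Zfp960, 3.55 to 14.5 CPM at Zfp936 and 2.96 to 7.21 CPM at Zfp937. Zfp936 was the one with a gap, between 6.81 and 8.42 CPM, with 21 strains below it (11 and 10 by lot) and 40 above. In stem cells Zfp937 had 3.02 CPM in BXD75 and 2.63 CPM in BXD87, and Zfp442 had 4.89 and 3.95 CPM. At Zfp955a BXD75 had 1.22 CPM and BXD87 0.172 CPM (log2 2.83, adjusted p = 8.2e-06).

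**Figure D5:**
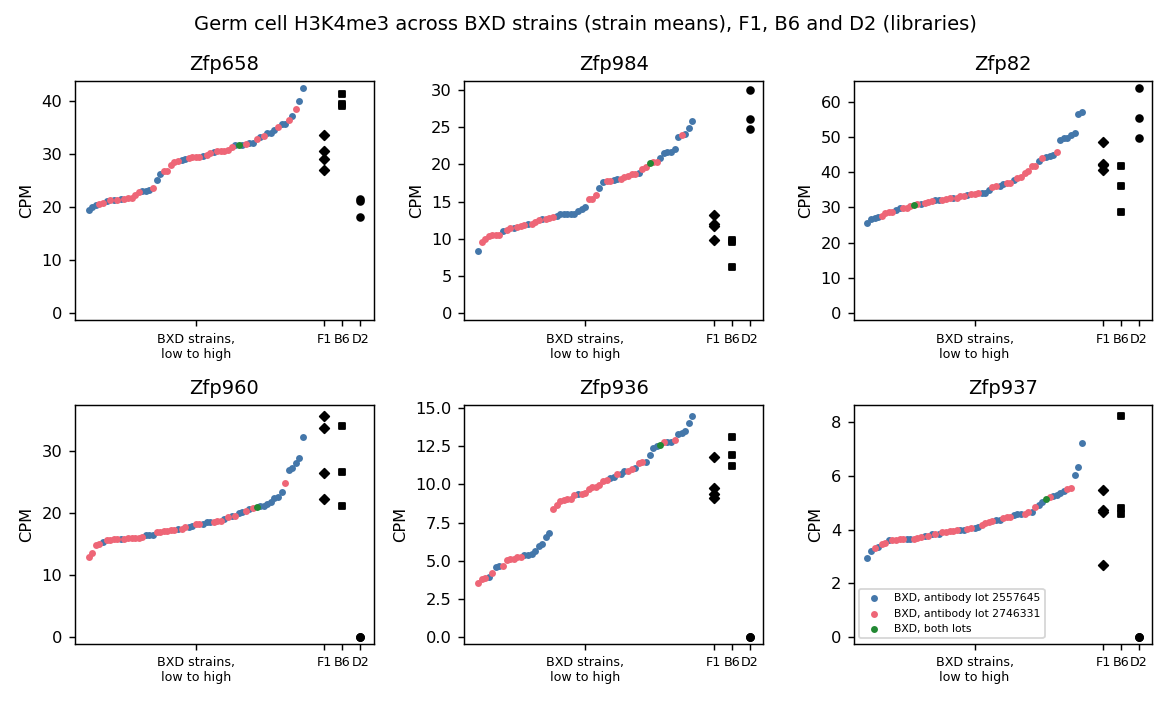
Germ cell H3K4me3 in CPM at 6 zinc finger promoters, as means of 61 BXD strains in rising order, coloured by antibody lot, beside the libraries of F1, B6 and D2. Zfp936 strain means leave a gap between 6.81 and 8.42 CPM, and D2 has no reads at Zfp960, Zfp936 and Zfp937.

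Variation over the panel was low for most members. The median standard deviation of log2 CPM over strains was 0.17 for the 279 members and 0.2 for all promoter peaks. None of the members had a standard deviation above 1, against 1.15% of promoter peaks.

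The other germ cell calls between founders were lower in B6 by modest amounts. The summed promoter level of the 8 germ cell markers was also lower in every B6 library of this crude isolate, at 358 to 431 CPM against 454 to 460 CPM in D2, and its part in these differences was not tested. Zfp82 had 28.7, 41.7 and 36.2 CPM in B6, against 49.6, 55.3 and 63.9 CPM in D2, without overlap (log2 -0.72, SE 0.16, adjusted p = 0.00347), and F1 averaged 43.4 CPM. Its panel ran over 25.7 to 56.9 CPM. Zfp474 (log2 -0.69), Zfp760 (-0.55), Zfp109 (-0.49), Zfp488 (-0.48) and Zfp74 (-0.48) complete the list. Zfp74, Zfp82 and Zfp109 lie on chromosome 7. Zfp109 and Zfp488 each lost the call in 5 of 6 fits that left out 1 library, with adjusted p up to 0.118 and 0.177, Zfp474 without D2 library 1 (0.0545) or 3 (0.0612), Zfp74 without the same 2 (0.0801 and 0.079) and Zfp760 without D2 library 1 (0.0707).

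In stem cells Zfp868 had the largest difference among members with reads in both founders and higher in B6. It had 60.1, 54.0 and 60.6 CPM in B6, against 20.9, 27.4 and 31.0 CPM in D2, far from overlap (log2 1.14, SE 0.12, adjusted p = 2.4e-07). BXD75 (27.1 to 33.3 CPM) and BXD87 (29.2 to 34.7 CPM) both overlapped the D2 range. The other cell types did not share the pattern. Germ cells averaged 65.2 CPM in B6 and 80.3 CPM in D2, hepatocytes 62.6 and 54.0 CPM, and cardiomyocytes 35.2 and 33.5 CPM. The test of the founder difference by cell type was called at Zfp868 (adjusted p = 3e-07).

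Other stem cell calls touched genes with known roles. Zfp462, a factor of pluripotency and neural development, was lower in B6, with 165, 164 and 180 CPM against 198, 287 and 236 CPM in D2 (log2 -0.50, adjusted p = 0.00354). Zfp217, part of LSD1 and CoREST repressor complexes, was higher in B6 (log2 0.40), as were Zfp638 (0.68), Zfp608 (0.61), Zfp786 (0.62) and Zfp516 (0.26), a factor of brown fat. Zfp618 was low in both, with 6.07, 5.90 and 5.79 CPM in B6 against 1.87, 2.75 and 4.45 CPM in D2 (log2 1.02, adjusted p = 0.0013). Zfp869, whose peak was found on the second genome alone, had 1.57, 1.36 and 1.44 CPM in B6 and 4.67, 4.31 and 3.47 CPM in D2 (log2 -1.52, adjusted p = 4.4e-06). None of 10 KRAB silencing cofactors with a stem cell peak was called, nor were any of 13 in germ cells, 13 in hepatocytes and 14 in cardiomyocytes. Lists this short give few calls at the promoter shares of 17.3%, 7.51%, 9.22% and 8.51%, so nothing is read from these counts.

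Among members with reads in both founders, hepatocyte differences were led by Zfp677 on chromosome 17 and Zfp14 on chromosome 7. Zfp677 had 32.2, 30 and 27.2 CPM in B6, against 12.6, 13.9 and 15.7 CPM in D2 (log2 1.07, SE 0.12, adjusted p = 2.9e-06). BXD75 (13.7 to 15.9 CPM) and BXD87 (15.2 to 16.2 CPM) overlapped the D2 range. Zfp14 had 24.4, 22.0 and 28.2 CPM in B6 and 11.6, 13.4 and 12.5 CPM in D2 (log2 0.99, SE 0.14, adjusted p = 6.4e-05), again with no overlap.

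Zfp157 and the retroviral silencer Zfp809 were lower in B6 hepatocytes. Zfp157 had 63.8, 62.8 and 61.3 CPM in B6, against 113, 91.0 and 102 CPM in D2 (log2 -0.70, adjusted p = 6.1e-05), and both BXD strains, at 36.9 to 45.7 CPM, were below B6. Zfp809 had 115, 111 and 100 CPM in B6 and 144, 139 and 145 CPM in D2 (log2 -0.39, adjusted p = 0.00545). Zfp788 showed 55.4, 55.6 and 55.6 CPM in B6, against 75.5, 73.1 and 82.7 CPM in D2 (log2 -0.47, adjusted p = 0.00158), and groups did not overlap at any of the 3 genes. The calls at Zfp105, Zfp280b, Zfp652, Zfp9, Zfp949 and Zfp983 had log2 differences of at most 0.50 in size and were each lost in 4 to 6 of 6 fits without 1 library, with adjusted p up to 0.23.

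In cardiomyocytes Zfp775 and Zfp384, both on chromosome 6, had the largest differences among members higher in B6 and with reads in both founders. Zfp775, whose peak also covers the start of Repin1, had 142, 154 and 124 CPM in B6, against 48.4, 50.6 and 63.1 CPM in D2 (log2 1.38, SE 0.12, adjusted p = 4.5e-06). Zfp384, a nuclear matrix transcription factor, had 65.4, 65.9 and 59.2 CPM in B6 and 25.8, 20.5 and 28 CPM in D2 (log2 1.37, SE 0.12, adjusted p = 6e-06). BXD75 and BXD87 overlapped B6 at both genes, with 132 to 156 CPM and 132 to 134 CPM at Zfp775 and 57.0 to 66.2 CPM and 58.2 to 60.8 CPM at Zfp384. Zfp384 averaged 55.5 CPM in B6 and 50.4 CPM in D2 stem cells, and 87.4 and 92.5 CPM in hepatocytes.

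The shared peak of Zfp942 and Zfp943 averaged 35.3 CPM in B6 and 16.3 CPM in D2 cardiomyocytes (log2 1.10, adjusted p = 0.00107). Zfp994, found on the reference genome alone, was lower in B6, with 13, 12.4 and 11.6 CPM against 24.9, 28.6 and 34.8 CPM in D2 (log2 -1.24, adjusted p = 0.00282). Zfp853, found on the second genome alone, had 6.27, 14.2 and 4.23 CPM in B6 and 21.1, 32.2 and 26.5 CPM in D2 (log2 -1.71, adjusted p = 0.0277), and lost the call in 5 of 6 fits without 1 library, with adjusted p up to 0.138. Calls at Zfp27 with Zfp383 (log2 0.81) and Zfp608 (0.62) were lost without B6 library 1 (adjusted p = 0.0649 and 0.0622) or D2 library 2 (0.0648 and 0.0744), and that at Zfp217 (0.56) in 4 of 6 such fits, with adjusted p up to 0.106. The summed level of 5 cardiomyocyte markers was 537 to 612 CPM in B6 and 395 to 418 CPM in D2. That of 4 markers of differentiated lineages was 804 to 864 CPM in B6 and 666 to 698 CPM in D2. The 1 germ cell marker with a peak was lower in B6 (11 to 14.3 CPM against 14.4 to 17.7 CPM in D2). So was the 1 hepatocyte marker (9.11 to 12.7 CPM against 12.9 to 16 CPM). The sums of 5 cardiac non-myocyte markers overlapped (353 to 415 CPM in B6, 366 to 411 CPM in D2), as did those of the remaining lists. The part of these levels in the cardiomyocyte differences was not tested.

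The test of the founder difference by cell type covered 88 members whose peaks matched in all 4 tables at 50% reciprocal overlap. It called 14 of them (15.9%), against 14.2% of all matched promoter peaks, a share near the background. The same founder libraries enter as in the comparisons above, and the count was 25 without cardiomyocyte library 2 of B6 and 22 without stem cell line 173 of D2. Founder germ cells had antibody lot 2557645 and the other cell types lot 2746331. For germ cells, cell type therefore cannot be told apart from lot or age. Without germ cells the test called 12 members, 11 of them among the 14. Members called besides Zfp868 included Zfp677, with a log2 difference of 1.07 in hepatocytes, -0.20 in stem cells, 0.20 in germ cells and 0.19 in cardiomyocytes (adjusted p = 0.00071). Zfp82 was at -0.68 in germ cells and between -0.04 and 0.13 elsewhere (adjusted p = 0.00112). Zfp266 was at 0.50 in stem cells and between 0.00 and 0.03 elsewhere (adjusted p = 0.00524). Zfp9 and Zfp105 had opposite signs in stem cells (0.31 and 0.37) and hepatocytes (-0.38 and -0.39), with adjusted p of 0.00867 and 0.0104.

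The comparison of BXD75 with BXD87 asked where 2 inbred descendants of the founders differ. In stem cells 29 of 273 members passed (10.6%, against 14.5% of promoter peaks), 20 higher in BXD75 and 9 lower (background 8.6% and 5.86%). In hepatocytes 4 of 262 passed (1.53% against 2.33%), 2 higher and 2 lower (background 1.29% and 1.04%). In cardiomyocytes 0 of 255 passed by edgeR, against 0.433% of promoter peaks, with 36 at an unadjusted p under 0.05 and 4 called by DESeq2. Without BXD75 cardiomyocyte library 1 the count was 1, and without BXD87 hepatocyte library 3 it was 2 in hepatocytes. Beside Zfp955a and Zfp658, Zfp872 on chromosome 9 had a log2 difference of 0.90 in stem cells (16.2 CPM in BXD75 and 8.66 CPM in BXD87, adjusted p = 4.9e-06), followed by Zfp575 (0.71) and Zfp629 (0.66).

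The founder calls and the strain calls share no library. In stem cells 14 members were called in both, which is 40% of the founder calls and 48.3% of the strain calls. Counted by peak, with Zfp27 and Zfp383 as 1, these were 13 peaks, or 38.2% and 46.4%, near the 36.5% and 43.6% over all promoter peaks. BXD75 was on the B6 side, meaning that its difference from BXD87 had the sign of B6 minus D2, at 10 of them: Zfp213, Zfp266, Zfp516, Zfp629, Zfp81, Zfp869, Zfp882, Zfp9, Zfp946 and Zfp955a. It was on the D2 side at Zfp27, Zfp383, Zfp658 and Zfp788. In hepatocytes all 4 strain calls were also founder calls (30.8% of the 13), with BXD75 on the D2 side at each. The side gives the sign of the difference and not the level. At Zfp788 and Zfp809 the BXD75 means were nearer to B6 than to D2, and the BXD87 means lay below every founder library. Over all promoter peaks 77.9% of the hepatocyte strain calls were founder calls, and 19.7% of the founder calls were strain calls. Zfp14 averaged 13 CPM in BXD75 and 18.9 CPM in BXD87 (adjusted p = 0.0298), Zfp788 54.3 and 39.7 CPM (0.00548) and Zfp809 104 and 80 CPM (0.0153). Leaving out single libraries ended the call at Zfp14 (without BXD75 library 1, 0.156, BXD75 library 3, 0.0688, or BXD87 library 1, 0.107), at Zfp788 (without BXD87 library 3, 0.0592) and at Zfp809 (without BXD75 library 2, 0.089, BXD87 library 2, 0.202, or BXD87 library 3, 0.172).

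The F1 comparisons asked how the hybrid relates to its parents in germ cells, and they share the F1 libraries. Against B6, 0 of 279 members passed by edgeR (promoter background 1.93%), with 11 at an unadjusted p under 0.05 and 1 called by DESeq2, and without B6 library B62 or B63 the count was 4 or 3. Against D2, 5 passed (1.79%, background 2.51%): Zfp658, Zfp936, Zfp937 and Zfp960 higher and Zfp984 lower in F1 (background 1.25% and 1.26%). Against the parental mean of log2 values 3 passed (1.08%, background 0.787%), all without D2 reads (Zfp936, Zfp937 and Zfp960), and their fitted differences depend on the prior count and are not given.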

How the data were processed

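H3K4me3 peaks were quantified in count tables deposited by the authors: whole-number reads per peak for each library, not normalised. Deposited association lists (unit: other, coordinates) place peaks on mm10 and on a second genome, its build not given in the sources used here. MACS 1.4.2, BWA 0.5.10, CASAVA 1.8 and mm10 stand in the submitters' processing notes, with no role or filter stated.

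Peaks were placed against GENCODE M21 starts, and 1 peak per gene, the promoter peak with most reads, was described. Counts were fitted in R 4.3.3 with edgeR 4.0.16 (filterByExpr, TMM, robust quasi-likelihood), 1 fit per cell type over its strains, and DESeq2 1.42.0 as an alternative. Peaks were matched between cell types with bedtools 2.31.1. Scripts were tested on simulated data.

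Named genes were called members whose groups did not overlap (up to the 8 largest differences in each direction), those called between the founders in at least 2 cell types, those with no read in 1 group and 50 or more in the other, and high members of the function lists. Other genes, such as those marked in 1 cell type, were named after their values were seen. Members and lists were chosen with earlier results of these data known. Replicate numbers were not used to pair libraries in the main fits, and fits with them as a block are given below.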

Additional observations from a re-analysis of the deposited data

Results flagged for a closer look

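Among 35 sets of 4 or more values tested (a named member in F1 germ cells or in the stem cell lines of BXD75 or BXD87), 0 held a value far from the others.

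At 14 members the founder difference depended on cell type in the edgeR test of the interaction, where germ cells also differ from the others in antibody lot. The adjusted p was 3e-07 at Zfp868, 0.00071 at Zfp677, 0.00088 at Zfp74, 0.00112 at Zfp82, 0.00524 at Zfp266, 0.00671 at Zfp963, 0.00811 at Zfp786, 0.00867 at Zfp9, 0.0104 at Zfp105, 0.0106 at Zfp607b, 0.0176 at Zfp667, 0.0213 at Zfp93, 0.0238 at Zfp983 and 0.0358 at Zfp641. The matched stem cell peak of Zfp74 is not its main promoter peak: it had a log2 difference of 0.20, while the main peak had -0.35. At Zfp963 the log2 difference of B6 minus D2 was 0.46 in cardiomyocytes and -0.15 in germ cells, and at Zfp983 it was -0.51 in hepatocytes and 0.65 in germ cells. Zfp667 and Zfp93 had their largest differences in cardiomyocytes (0.46 and 0.38). Zfp607b was at -0.40 in stem cells and 0.29 in germ cells, and Zfp641 at 0.55 in hepatocytes and -0.42 in cardiomyocytes.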

How the results depend on the processing

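With peaks found on both genomes alone the called members were 4 in place of 11 in germ cells and 8 in place of 13 in hepatocytes between B6 and D2, but 25 of 178 in place of 18 of 255 in cardiomyocytes (14 of them called before), 2 in place of 5 for F1 minus D2 and 0 in place of 3 for F1 minus the parental mean. A stricter filter gave 7 in germ cells. Every stem cell library as a replicate gave 70 in place of 35. DESeq2 gave 4 in place of 0 for cardiomyocytes of BXD75 minus BXD87, 1 in place of 0 for F1 minus B6 and 8 in place of 5 for F1 minus D2. Matching at 80% overlap left 3 members, 1 of them called, and joining by gene (chosen after seeing the data) called 36, including the 14 called by matching. The cause of these shifts was not tested.

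Without 1 library the counts for B6 minus D2 were 7 to 21 in germ cells, 25 to 54 in stem cells, 6 to 9 in hepatocytes and 8 to 32 in cardiomyocytes. For BXD75 minus BXD87 they were 20 to 31, 2 to 4 and 0 to 1 in stem cells, hepatocytes and cardiomyocytes. For F1 they were 0 to 4 minus B6, 4 to 6 minus D2 and 3 to 3 minus the parental mean, and for the difference by cell type 11 to 25, with 22 without stem cell line 173 of D2. Among 581 values of named members with 1 library left out 482 kept the call and 99 lost it, and among 514 under other alternatives 498 kept it and 16 lost it. No named member changed sign in these settings.

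In no comparison made were all same-numbered pairs correlated over 0.1, but single pairs were. BXD75 with BXD87 gave 0.591, -0.283 and 0.621 in hepatocytes and -0.513, -0.637 and 0.656 in cardiomyocytes. Over all pairs of strains a correlation over 0.1 held for 5 of 18 pairs in hepatocytes, 8 of 18 in cardiomyocytes and 0 of 3 in germ cells, and all 3 pairs of B6 with BXD87 cardiomyocytes, which were not compared, exceeded it (0.149, 0.471 and 0.444). With the replicate number as a block the called members were 14 and 12 for B6 minus D2 in hepatocytes and cardiomyocytes, 5 and 0 for BXD75 minus BXD87 in the same cell types, and 11 in place of 5 for F1 minus D2. Of 34 values of named members 33 kept the call under the block, and Zfp217 in cardiomyocytes lost it (adjusted p = 0.0584).

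Precision is limited by 3 libraries or lines in most groups and by depth in D2 cardiomyocytes.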
